A study of Mus musculus with 8 samples.

Results

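These data are H3K27Ac ChIP-Seq peaks of mouse ventricles at postnatal day 7 (P7), and the peaks described here are strong in control hearts and lose a limited part of their signal in *Arid1a cKO* hearts. H3K27Ac is acetylation of lysine 27 of histone H3, a mark of active promoters and enhancers. Members were chosen by their measured values. A peak was included when its control level was at least 8 on the log2 scale of normalized reads, which is 256 reads, and when its level in *Arid1a cKO* minus its level in controls was from -1.5 to -0.5, which leaves 35.4% to 70.7% of the control reads. Of 45987 peaks, 5892 reached the control level, and 532 of these fell within the window. These 532 peaks are called partial losses below.

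Controls were *Arid1a f/f* hearts with floxed alleles and no Cre, and *Arid1a cKO* hearts carried the same floxed alleles with *aMHC-Cre*, a transgene driven by the alpha myosin heavy chain promoter that acts in cardiomyocytes. All 4 hearts had both floxed alleles, and other heart cells of the mutants were not targeted. There were 2 hearts per group, and each gave an H3K27Ac library and an input library, for 8 libraries in all. The authors' table holds 1 mean per group for each peak and 0 columns for single samples. The depth of each library is therefore unknown, no spread between hearts can be given, and each level below is the authors' group mean. No test of a single peak was run here, since that needs the values of the single hearts, and intervals below cover counting error over peaks only.

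ARID1A is a DNA-binding subunit of the BAF (SWI/SNF) complex, which moves nucleosomes and so opens enhancers to transcription factors. Genes of the heart are often served by several enhancers, in introns and in the DNA around the gene, and factors such as MEF2, GATA4, TBX5 and the estrogen-related receptors bind them. Acetylation of such an enhancer is commonly read as a sign of its activity.

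The marker lists of heart cell types were checked first, by the peaks nearest to their genes. In controls, 14 of 15 cardiomyocyte markers had a peak, and the highest, at *Atp2a2*, the calcium pump of the sarcoplasmic reticulum, had a level of 12.55. No peak was nearest to *Actc1*. Of 14 leukocyte markers, 11 had a peak, none of them with a control level of 8, and *Adgre1*, *Itgam* and *Lyz2* had none. No list of markers held a partial loss by the nearest start, but 3 of the 16 strong peaks of the cardiomyocyte markers were partial losses when peaks were named by the span of the gene. The summed reads of the cardiomyocyte markers were 32675 in controls and 29900 in *Arid1a cKO*, those of 15 fibroblast markers 7600 and 9791, those of 18 endothelial markers 28727 and 29188, those of 11 smooth muscle and pericyte markers 7300 and 7795, and those of 14 leukocyte markers 724 and 846. In ventricle tissue, fewer cardiomyocytes and less H3K27Ac per cardiomyocyte cannot be told apart, and the part of the cell mixture in the falls was not tested.

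The sequences of some of the largest partial losses are shown for the MEF2 core, which was found in a larger share of partial losses than of strong peaks that differed by less than 0.5. MEF2 factors are transcription factors of muscle genes, and the pattern of their core is a palindrome, so that a match on either strand is also a match on the other. Of the 10 partial losses with the largest drop in reads, 7 held at least 1 such core, and the match nearest to the peak's centre is shown for each, in capitals, with 25 reference bases on each side (GRCm38, plus strand, 5′ to 3′). These 10 peaks were 8976 to 59209 bp wide, and wide peaks hold more matches by their length alone. At control levels of 10 or more, the core was in 45.5% of the 33 partial losses, whose median width was 13824 bp. It was in 29.2% of the 534 strong peaks of that level that differed by less than 0.5, with 12235.5 bp. No interval was taken for these shares. Outside promoters, in peaks of 9 kb or more, the shares were 38.4% (28.1% to 49.8%) and 31.9% (28.7% to 35.3%), with overlapping intervals. The last 2 sequences are from partial losses in the introns of *Kcnj2* and *Cacnb2*, which encode an inward rectifier potassium channel and a subunit of the L-type calcium channel.
Hand2, chr8:57309329-57309388: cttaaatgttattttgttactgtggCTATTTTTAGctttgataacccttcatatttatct
Tns1 intron, chr1:73951385-73951444: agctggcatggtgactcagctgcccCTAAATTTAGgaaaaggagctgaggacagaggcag
Coq8a intron, chr1:180195000-180195059: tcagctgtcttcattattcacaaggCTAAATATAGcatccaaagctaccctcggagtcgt
Asb2, chr12:103362577-103362636: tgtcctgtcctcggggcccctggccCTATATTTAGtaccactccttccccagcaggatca
Camta1 intron, chr4:151097262-151097321: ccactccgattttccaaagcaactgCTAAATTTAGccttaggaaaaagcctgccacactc
Mir1a-1, chr2:180385301-180385360: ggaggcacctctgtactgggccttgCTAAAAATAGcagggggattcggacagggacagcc
Eif4ebp1 intron, chr8:27269170-27269229: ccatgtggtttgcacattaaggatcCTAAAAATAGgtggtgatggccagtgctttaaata
Kcnj2 intron, chr11:111068362-111068421: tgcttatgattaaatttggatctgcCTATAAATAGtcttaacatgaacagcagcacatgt
Cacnb2 intron, chr2:14837289-14837348: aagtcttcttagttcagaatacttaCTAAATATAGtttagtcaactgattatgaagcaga

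The *Hand2* window also held an AGATAA match, the core of GATA factors, and the *Tns1* window held a match to the AP-1 core TGANTCA. The cores lay far from the centre of the widest peaks. That of *Hand2* was 12487 bp before the centre and that of *Tns1* 9928 bp after it, while that of *Kcnj2* was 737 bp from the centre.

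Partial losses made up 9.03% of all strong peaks, and the same window held 13.5% of all peaks. These shares follow from the rule and are given as background. Among the 5892 strong peaks, 5251 differed by less than 0.5, 74 fell by more than 1.5 and 35 rose by 0.5 or more, and these 3 groups are compared with the partial losses below. No strong peak rose by more than 1.5. Selection on the control level favours falls. With the limit placed on the level over all samples, 393 of 5742 peaks fell within the window and 59 rose by 0.5 to 1.5, and with the limit on the *Arid1a cKO* level the counts were 253 and 91 of 5590.

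**Figure D1:**
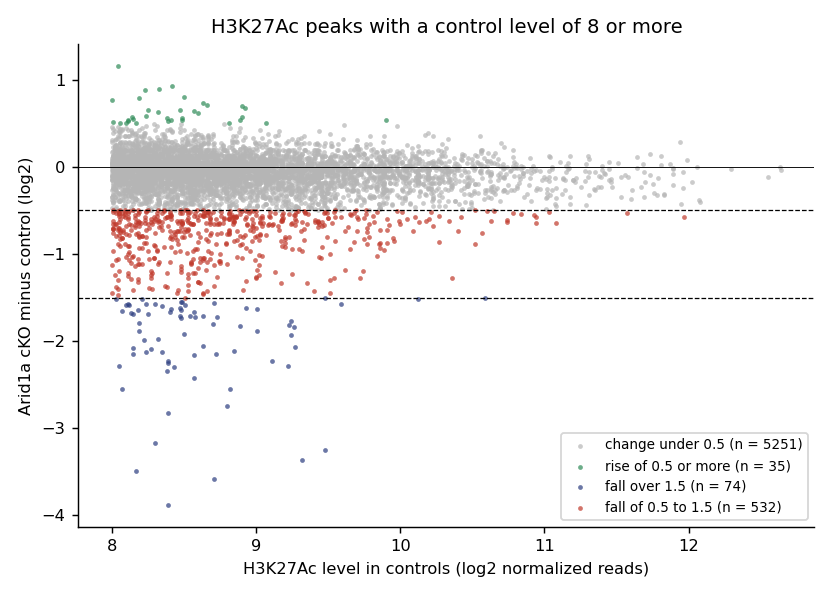
Each point is a peak with a control level of at least 8, plotted by its control level (x axis, log2 normalized reads) and by its level in *Arid1a cKO* minus control (y axis, log2), both authors' group means. The 532 partial losses, in red between the dashed lines at -1.5 and -0.5, are crowded towards the upper line, and 33 of them have a control level of 10 or more.

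The median partial loss had a level of 8.67 in controls and 7.92 in *Arid1a cKO*, a difference of -0.69, so that 62.0% of the control reads remained. Most falls were shallow. Of the 532 partial losses, 311 fell by 0.5 to 0.75, 115 by more than 0.75 and up to 1, and 106 by more than 1. Their control levels reached from 8 to 11.97. The share of strong peaks that were partial losses was 9.54% at control levels from 8 to 9, 8.99% from 9 to 10 and 5.80% at 10 or more.

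At the limits, the values ran on without a gap. The deepest partial losses were a peak nearest to *Gm13133* with 8.51 in controls and 7.01 in *Arid1a cKO*, and 1 nearest to *Dlgap4* with 8.04 and 6.57. Just beyond them were peaks nearest to *Ppil1* with 10.59 and 9.08, and *Emilin2* with 9.48 and 7.97. At the other end, 18 partial losses stood at exactly -0.5, among them a peak of *Alpk2* with 10.52 and 10.02, and 18 strong peaks stood at -0.49 and were left out, among them a peak of *Bcl6* with 10.64 and 10.15. The lowest control levels were 8 at *Nr2c2ap* and *Mir7032*, and just below the limit lay peaks of *Ppif*, *Siah2* and *Myocd* at 7.99. The 5668 weaker peaks in the same window had a median control level of 5.12 and a median difference of -0.84.

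Partial losses were 1.16% of all peaks and carried 4.83% of all reads within peaks in controls and 3.09% in *Arid1a cKO*, a share that follows in part from the limit on the control level. Summed over the 532 peaks, 277819 control reads became 167479. Over the 22228 peaks whose level was lower in *Arid1a cKO*, 48.3% of all peaks, 682124 reads were lost, and partial losses accounted for 16.2% of this sum. Gains at other peaks are not subtracted from this sum, so it is not a net loss. Over all peaks, the reads were 5.75e+06 in controls and 5.43e+06 in *Arid1a cKO*. The largest share, 30.6%, was held by the 3136 strong peaks that fell by less than 0.5. The 74 strong peaks with deeper falls accounted for 3.33%, the 2710 weaker peaks with falls over 1.5 for 15.4%, the 5668 weaker peaks of the same window for 21.5%, and the 10108 weaker peaks with smaller falls for 13.0%. A partial loss cost a median of 172 reads, beside 15.7 reads for a weaker peak in the same window, a contrast that the limit on the level sets. The scaling between libraries could not be read from the table, and a sum of reads moves with it.

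The highest partial losses were very broad. The 10 with the highest control levels were 15175 to 59209 bp wide, had control levels from 10.74 to 11.97 and kept 64.2% to 69.7% of their reads. Of these, 8 were centred in introns. The highest was centred 863 bp from the start of *Hand2*, a transcription factor of heart development, at chr8:57307639-57336053, with 11.97 in controls and 11.40 in *Arid1a cKO*, or 4012 and 2702 reads. It covered the whole promoter and was the largest loss, 1309 reads. The next was the widest of all partial losses, at chr1:73911883-73971091 in an intron of *Tns1*, which encodes an adaptor between integrins and actin. Its level was 11.57 in controls and 11.04 in *Arid1a cKO*.

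Other large losses lay at genes of varied function. A peak in *Coq8a*, a kinase-like gene of coenzyme Q synthesis, had 11.08 in controls and 10.44 in *Arid1a cKO* (chr1:180174028-180196978). The peak nearest to *Mir1a-1*, a muscle microRNA gene, had 11.03 and 10.51 (chr2:180384268-180401138, in an intron). The deepest fall among the 10 largest losses was in an intron of *Ip6k3*, an inositol hexakisphosphate kinase expressed in muscle, from 10.36 to 9.09, which left 41.5% of the reads (chr17:27150467-27162619). A peak nearest to *Asb2*, a ubiquitin ligase subunit of muscle, fell from 10.52 to 9.63 (chr12:103351966-103363994), and a peak in *Cish*, an inhibitor of cytokine signalling, from 10.57 to 9.81 (chr9:107295268-107304243). The loss of reads was largest where the level was highest, but the fraction lost was not. Among the 10 largest losses in reads, the difference ranged from -1.27 to -0.52.

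Most partial losses lay away from promoters. A promoter is taken here as 1000 bp before to 100 bp after a transcription start, and the centre of the peak sets its place. By this measure, 344 of 532 (64.7%, 95% Wilson interval 60.5% to 68.6%) were in introns, 116 (21.8%, 18.5% to 25.5%) between genes and 30 (5.64%, 3.98% to 7.94%) at promoters. A further 20 were centred in coding exons, 16 in other exons and 6 at transcript ends. Of the strong peaks that differed by less than 0.5, 24.8% (23.6% to 26.0%) were at promoters and 48.0% (46.6% to 49.3%) in introns. The strong peaks with deeper falls had shares near those of the partial losses, with 63.5% in introns (52.1% to 73.6%) and 5.41% at promoters (2.122% to 13.1%). Counted the other way, 2.24% of strong promoter peaks were partial losses, beside 11.7% of strong intron peaks and 12.2% of those between genes. Since strong peaks are several kilobases wide, many reach a promoter with their flank. When any base could touch the promoter, 33.3% of partial losses (29.4% to 37.4%) and 68.9% of the strong peaks that differed by less than 0.5 (67.6% to 70.1%) did so.

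**Figure D2:**
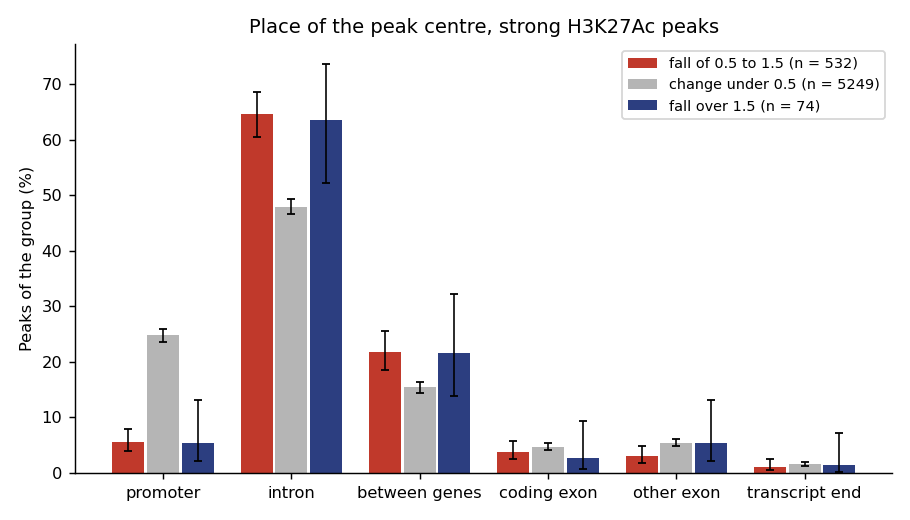
Bars give the percent of peaks of each group (y axis) whose centre lies in each kind of place (x axis), with 95% Wilson intervals as error bars. Promoters hold 5.64% of the 532 partial losses and 24.8% of the strong peaks that differed by less than 0.5, and introns hold 64.7% and 48.0%.

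The median distance from the centre of a partial loss to the nearest transcription start was 15.7 kb (interval of the median 12.3 to 18.1 kb), beside 1.14 kb (1.06 to 1.23 kb) for strong peaks that differed by less than 0.5. It was 15.5 kb over all peaks, 13.1 kb for strong peaks with deeper falls and 24.5 kb for the weaker peaks of the same window. For 114 partial losses (21.4%) the distance was over 50 kb, and for 45 (8.46%) over 100 kb. Outside promoters, the 502 remaining partial losses were slightly wider than the 3948 strong peaks that differed by less than 0.5, with medians of 6038 and 5537 bp, and their reads were spread more thinly, with 73.1 and 87.8 control reads per kb. They also held fewer CpG sites, 12.9 against 19.3 per kb, and had a median GC content of 48.3% against 49.7%. These values were not particular to partial losses. Strong peaks that rose, promoters included, had a median width of 8330 bp. Strong peaks with deeper falls outside promoters had medians of 12.3 CpG sites per kb, 48.5% GC and 70.1 control reads per kb, at a width of 5411 bp. Over all peaks, promoters included, the medians were 13.6 CpG sites per kb and 48.1% GC. Partial losses were found on every autosome and on chromosome X, at 4.08% to 12.9% of the strong peaks of each.

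The 30 partial losses at promoters differed by -1.45 to -0.53. They included *Mir486*, a muscle microRNA within *Ank1*, with 9.84 in controls and 8.82 in *Arid1a cKO* (chr8:23137785-23145438), and *Csrp3*, the muscle LIM protein of the Z-disc, with 10.27 and 9.71 (chr7:48838693-48850216). The peak at *Plin4*, a lipid droplet coat gene, had 9.46 and 8.54 (chr17:56107725-56111812). At *Tcap*, the titin cap of the Z-disc, the promoter peak had 9.04 and 8.36 (chr11:98381619-98385900). Genes of glucose and amino acid metabolism were also among them. *Ldha*, lactate dehydrogenase A, had 9.43 and 8.80, *Pygm*, muscle glycogen phosphorylase, 8.58 and 8.05, *Ppp1r3a*, which targets a phosphatase to glycogen, 8.52 and 7.79, and *Gpt*, alanine aminotransferase, 8.04 and 6.74. The peptide hormone gene *Edn1* had 8.78 and 8.18, and the cell death gene *Bcl2l11* had 9.08 and 8.41.

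Peaks were named for the nearest start, which need not be that of the promoter holding the centre. Of the 30 genes so named, 25 were matched to a RefSeq promoter of 300 bases (250 before to 50 after the start, GRCm38.p6). The promoters of *Hand2* and *Csrp3*, within the 2 highest of these peaks, are shown on the strand of the gene, with matches to the cores searched in capitals. The centre at *Hand2* lay 863 bp after the start shown, in the promoter of another transcript.
Hand2 promoter, chr8:57320733-57321032, plus strand: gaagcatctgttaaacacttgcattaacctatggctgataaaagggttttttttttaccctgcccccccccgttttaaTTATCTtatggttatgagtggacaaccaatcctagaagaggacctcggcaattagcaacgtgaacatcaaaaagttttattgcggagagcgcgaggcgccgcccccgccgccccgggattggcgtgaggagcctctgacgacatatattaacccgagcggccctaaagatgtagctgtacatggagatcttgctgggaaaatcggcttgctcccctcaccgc
Csrp3 promoter, chr7:48843622-48843921, minus strand: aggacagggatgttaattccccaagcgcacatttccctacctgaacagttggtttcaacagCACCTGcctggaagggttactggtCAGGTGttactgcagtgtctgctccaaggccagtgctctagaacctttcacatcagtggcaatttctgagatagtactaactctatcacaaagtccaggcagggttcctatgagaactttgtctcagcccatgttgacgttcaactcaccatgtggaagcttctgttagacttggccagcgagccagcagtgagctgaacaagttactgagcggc

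The *Hand2* promoter held 1 GATA core, on the reverse strand, whose first base was at -172. The *Csrp3* promoter held 2 matches to CAGGTG, the core of ZEB factors, at -189 and -165. Over the 25 promoters, 1 held a MEF2 core (*Ppp1r3a*), beside 0.557% of 32851 RefSeq promoters of the same length. A match to AAGGTCA, the core of the estrogen-related receptors (ESRR), was in 3 of 25 (*Rpl3l*, *Mlf1* and *Gm11264*), beside 4.72% of all promoters. CAGGTG was in 4, beside 20.2%, AGATAA in 3, beside 11.2%, and CATTCC, the core of TEAD factors, in 2, beside 14.7%. CACGTG, the E-box, was in 1, beside 7.15%, and TGANTCA in 1, beside 7.81%.

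Across the whole peak, a MEF2 core was found on either strand in 147 of 532 partial losses (27.6%, 24.0% to 31.6%). It was in 14.9% of the strong peaks that differed by less than 0.5 (14.0% to 15.9%), in 7 of the 74 with deeper falls (9.46%, 4.66% to 18.3%), and in 6 of the 35 that rose (17.1%, 8.10% to 32.7%). The interval of the partial losses overlapped that of the peaks that rose and not those of the other 2 strong groups. Of all peaks, whose median width was 1781 bp beside 6003 bp for partial losses, 7.56% held a core. Leaving out promoters, which was decided after the values were seen, gave 27.7% for partial losses, 17.2% for strong peaks that differed by less than 0.5 and 10% for deeper falls. Wider peaks hold more matches by their length alone, so the share was also taken within classes of width. Between 4 and 6 kb it was 25.6% (19.5% to 32.8%) in partial losses and 15.3% (13.3% to 17.6%) in strong peaks that differed by less than 0.5, and between 6 and 9 kb 32.2% (25.9% to 39.3%) and 19.2% (16.9% to 21.8%). Under 4 kb, and at 9 kb or more, the intervals overlapped. Per kb outside promoters, partial losses held 0.0474 cores, strong peaks that differed by less than 0.5 held 0.0287, deeper falls 0.0172 and weaker peaks of the same window 0.0598.

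**Figure D3:**
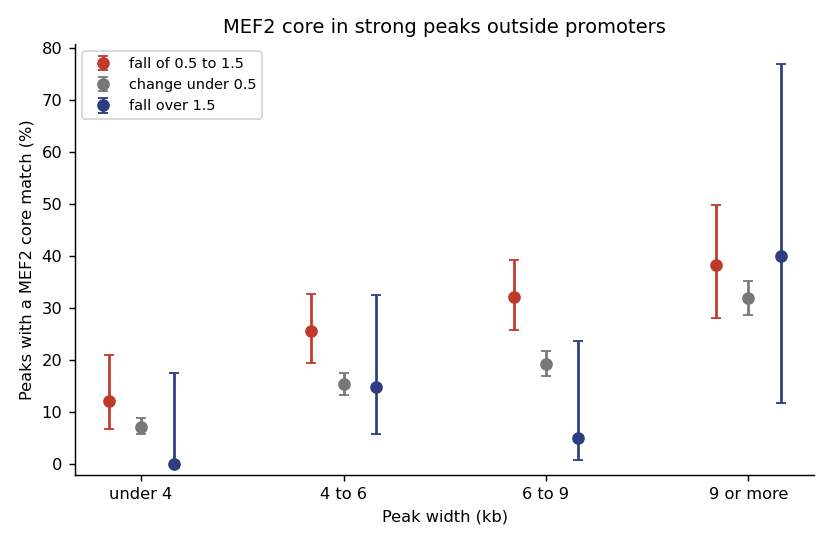
Points give the percent of strong peaks outside promoters with at least 1 MEF2 core (y axis) by width of the peak in kb (x axis), with 95% Wilson intervals as bars. Partial losses in red lie above the strong peaks that differed by less than 0.5 in every width class, with intervals that do not overlap from 4 to 6 kb and from 6 to 9 kb.

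Within the partial losses, the share with a MEF2 core was taken by steps of the fall. The core was in 18.9% of the 106 that fell by more than 1 (12.6% to 27.4%), in 25.2% of the 115 that fell by 0.75 to 1 (18.2% to 33.9%) and in 31.5% of the 311 that fell by 0.5 to 0.75 (26.6% to 36.9%), and all 3 intervals overlapped. The median width in these steps was 5823, 6040 and 6027 bp. The matches were spread over the peaks. Only 14 of 532 partial losses (2.63%, 1.57% to 4.37%) had the core within their central 500 bp, beside 1.49% of strong peaks that differed by less than 0.5 (1.19% to 1.85%) and 5.59% of the weaker peaks of the same window (5.03% to 6.22%). The share of all peaks in this equal length was 2.58% (2.44% to 2.73%), within the interval of the partial losses.

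The ESRR core was in 412 partial losses (77.4%, 73.7% to 80.8%), beside 62.9% of strong peaks that differed by less than 0.5 (61.5% to 64.1%) and 82.4% of those with deeper falls (72.2% to 89.4%). Outside promoters its density was 0.269 per kb in partial losses, 0.229 in strong peaks that differed by less than 0.5 and 0.304 in deeper falls. Within classes of width outside promoters, the intervals of partial losses and of strong peaks that differed by less than 0.5 were apart only under 4 kb, with 63.4% (52.6% to 73.0%) and 44.5% (41.7% to 47.5%). They overlapped from 4 to 6 kb (71.3% and 63.5%), from 6 to 9 kb (84.7% and 80.2%) and at 9 kb or more (91.8% and 92.9%). The short cores of ZEB, TEAD and GATA factors were in over 90% of partial losses, with 97.7%, 94.2% and 91.2%. In strong peaks that differed by less than 0.5 they were in 92.5%, 88.1% and 84.3%. The AP-1 core was in 83.1% and the E-box in 63.9%, beside 69.1% and 55.5% of strong peaks that differed by less than 0.5. The shares of ZEB, TEAD, GATA, AP-1 and E-box cores were not taken by width. Per kb outside promoters, partial losses held 0.317 AP-1 cores and 0.186 E-boxes, beside 0.295 and 0.162. A match is a run of letters in the reference and does not show that a factor was bound.

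The peaks around a partial loss were lower as well. Weaker peaks, with a control level under 8, cannot be partial losses, and those within 50 kb of a partial loss had a median difference of -0.34 (-0.41 to -0.28), beside 0.025 (0.015 to 0.035) around strong peaks that differed by less than 0.5 and -0.76 (-1.20 to -0.54) around those with deeper falls. Of 521 partial losses with weaker peaks nearby, 397 (76.2%) had a median of these under 0, and for 139 (26.7%) that median fell further than the partial loss itself. Outside promoters, the difference of the weaker peaks was -0.64 (-0.73 to -0.52) within 10 kb, -0.29 (-0.34 to -0.22) from 10 to 50 kb, -0.12 (-0.17 to -0.08) from 50 to 100 kb and -0.03 (-0.06 to -0.01) from 100 to 250 kb. Around strong peaks that differed by less than 0.5, the medians were between 0.02 and 0.04 at all 4 distances. Neighbouring peaks come from the same libraries and can be parts of 1 acetylated region. Each value is a median, over strong peaks, of the median of their weaker neighbours. Another partial loss lay within 50 kb of 149 of 524 partial losses (28.4%), so a weaker peak could be counted repeatedly. The intervals do not allow for this.

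**Figure D4:**
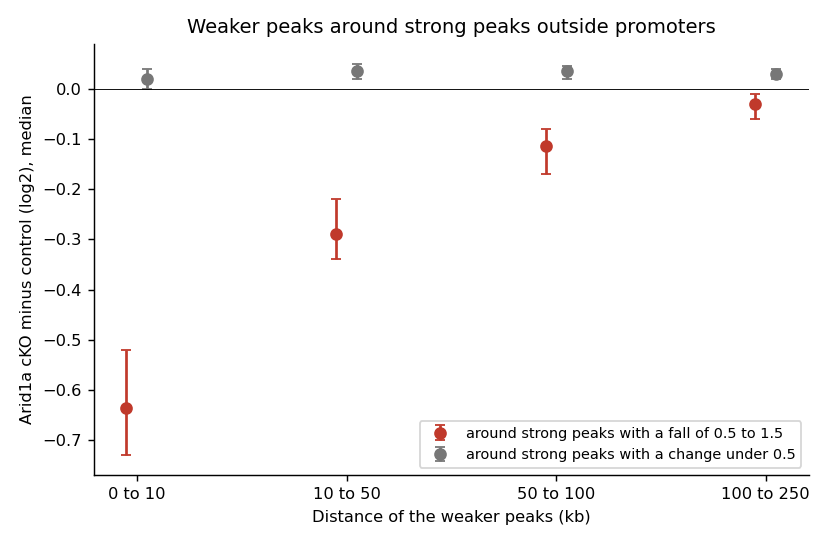
Points give the median, over strong peaks outside promoters, of the median difference of weaker peaks (y axis, log2, *Arid1a cKO* minus control) by distance from the strong peak in kb (x axis), and bars give the 95% interval of the median. Around partial losses the value rises from -0.64 within 10 kb to -0.03 from 100 to 250 kb, while around strong peaks that differed by less than 0.5 it stays between 0.02 and 0.04. A weaker peak can count for several strong peaks, which the bars do not allow for.

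The promoters of nearby genes were read as well. For partial losses that did not touch a promoter, 232 of their 305 nearest genes had another peak on their promoter. The median difference of these promoter peaks was -0.21 (-0.25 to -0.16), and 41 of 232 (17.7%) fell by 0.5 or more. A promoter peak could itself be a partial loss chosen by the rule, and such peaks were not set apart. For genes near strong peaks that differed by less than 0.5, the median was -0.02 (-0.03 to 0) and 50 of 955 (5.24%) fell by 0.5 or more. For genes near deeper falls, the median was -0.33 (-0.65 to -0.23) and 21 of 50 did so.

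Partial losses were spread over many genes. Named by the nearest transcription start, they belonged to 452 genes, of which 390 had 1, 50 had 2, 7 had 3, 4 had 4 and 1 had 5. For 98 of the 390 partial losses within a protein-coding gene, the nearest start was of another gene. *Itga9*, which encodes an integrin subunit, had 5, and *Stk39*, *Cacnb2*, *Adcy5* and *Sipa1l2* had 4 each. *Fhod3*, *Gm9899*, *Gm26885*, *Adrb1* and *0610039H22Rik* followed with 3, and those of *Gm9899* lay within *Kcnk3*, a 2-pore potassium channel gene. By the span of the gene, *Mical3*, *Msi2* and *Ptprm* also had 4.

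At *Itga9*, all 5 strong peaks nearest to its start were partial losses. Their levels were 8.83 in controls and 8.28 in *Arid1a cKO* at chr9:118606201-118613273, 9.20 and 8.40 at chr9:118691320-118696759, 8.05 and 7.49 at chr9:118715446-118719774, 9.95 and 9.13 at chr9:118719984-118735409, and 9.77 and 8.89 at chr9:118735888-118743463, all in introns. The 12 weaker peaks of the gene went both ways, with 6 lower and a median of -0.05. By the span of the gene, *Itga9* had 6 strong peaks, 1 of them with a deeper fall, and 12 of its 19 weaker peaks were lower, with a median of -0.50. At *Stk39*, a kinase that activates cotransporters of sodium and chloride, the 4 strong peaks were partial losses too, with differences of -0.85, -0.50, -1.24 and -0.87. All 10 of its weaker peaks were lower, with a median of -1.62, and 5 fell by more than 1.5, so the weaker peaks of this gene lost a larger share than the strong ones. A weaker peak at chr2:68390928-68393054, for example, had 5.82 in controls and 2.73 in *Arid1a cKO*.

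*Cacnb2* showed a like order. Its 4 partial losses differed by -0.63, -0.74, -0.96 and -1.21, and its 5 weaker peaks, all lower, by -2.23 to -0.50 with a median of -1.05. *Adcy5*, the main adenylyl cyclase of the heart besides *Adcy6*, had partial losses of -0.91, -1.37, -0.68 and -1.14, and 8 of its 9 weaker peaks were lower, with a median of -0.55. One of these, between genes at chr16:35129483-35130660, had 5.71 in controls and -0.08 in *Arid1a cKO*, which is close to 1 read. At *Sipa1l2*, 4 of 10 strong peaks were partial losses, the other 6 differed by less than 0.5, and the 27 weaker peaks had a median of 0.

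**Figure D5:**
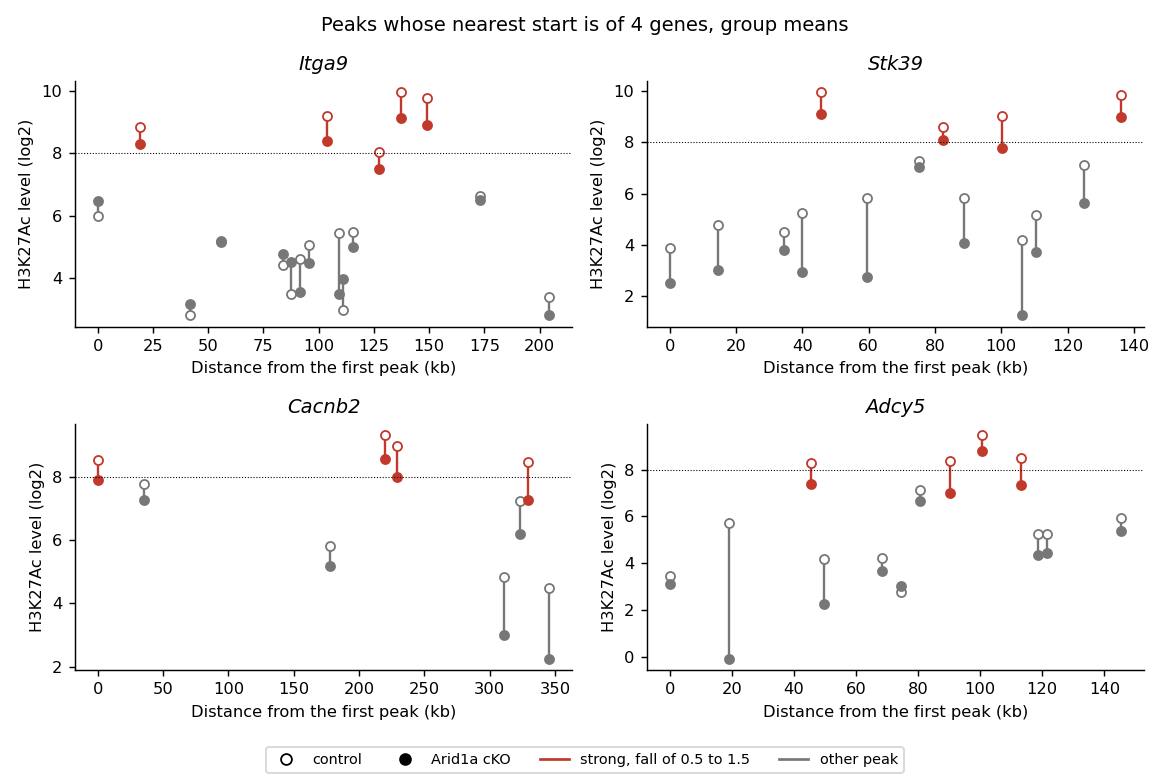
Every peak whose nearest start belongs to *Itga9*, *Stk39*, *Cacnb2* or *Adcy5* is drawn by its distance from the first peak in kb (x axis) and its level (y axis, log2 normalized reads), with open circles for controls and filled circles for *Arid1a cKO*. Partial losses are red, other peaks are grey, and the dotted line is the control level of 8. At *Stk39* all 14 peaks are lower in *Arid1a cKO*, while at *Itga9* the weaker peaks go both ways.

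Lists of genes were read for the strong peaks nearest to their starts. The 7 lists of heart genes, with 224 genes in all, had 267 strong peaks, and 59 of these (22.1%) were partial losses, beside 9.03% of all strong peaks. The lists and the members were drawn with results of these data known, so the counts are a description. The median difference over all strong peaks was -0.07.

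Of the sarcomere genes, which build the contractile apparatus, 47 strong peaks had a median of -0.35, and 13 of them, at 9 genes, were partial losses, while the other 34 differed by less than 0.5. *Fhod3*, a formin of thin filament assembly, had 3, the highest with 10.63 in controls and 10.01 in *Arid1a cKO*. *Lmod2*, which caps and elongates thin filaments, had 10.05 and 9.45 in an intron. *Tcap*, besides the peak at its promoter, had the nearest start to a partial loss at chr11:98376452-98381394, with 8.53 and 7.17. The centre of that peak was 4.89 kb before the start, in a coding exon of another gene. *Tnni1*, the slow skeletal troponin I of the fetal heart, had 8.79 and 7.92. *Fbxo32*, *Smyd1*, *Myh7b* and *Nebl* had 1 each, with *Arid1a cKO* levels between 7.72 and 9.02.

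Of the calcium handling genes, 6 of 23 strong peaks were partial losses, and the median of the 23 was -0.25. Besides the 4 at *Cacnb2*, these were at *Casq2*, the calcium-binding protein of the sarcoplasmic reticulum, with 9.18 in controls and 8.56 in *Arid1a cKO* close to its start and 8.38 and 7 further inside the gene. Of the genes for potassium, sodium and pacemaker channels and the sodium pump, 9 of 30 strong peaks were partial losses and 2 fell further, with a median of -0.32. *Kcnj2* had 9.01 and 7.83, and *Kcnj5*, the G protein-gated inward rectifier, 9.41 and 8.78. The repolarizing channel genes *Kcnq1* and *Kcnh2* had a pair each, with 9.76 and 9.22, and 8.05 and 7.35, at *Kcnq1*, and 8.06 and 7.31, and 8.01 and 7.30, at *Kcnh2*.

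Of the genes of the intercalated disc and costamere, 9 of 44 strong peaks were partial losses, with a median of -0.20 over the 44. *Dsp*, desmoplakin, had 9.77 and 9.07 in a peak centred before its start and covering it, and 9 and 7.74 in an intron. *Sgcd*, of the sarcoglycan complex, had 8.61 and 7.57. Of the adrenergic and cAMP genes, 11 of 35 were partial losses, with a median of -0.23. *Adrb1*, the main beta-adrenergic receptor of cardiomyocytes, had 3 centred between genes, with 10.60 and 10.09, 8.27 and 7.67, and 9.50 and 8.91. The highest of these also covered the start of *Adrb1*. *Grk5*, a kinase that desensitizes such receptors, had 8.68 and 7.62.

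Of the heart transcription factors and class IIa deacetylases, 7 of 46 strong peaks were partial losses, 3 fell further and 1 rose, with a median of -0.27. Beside *Hand2*, they included peaks at *Tbx5* with 9.27 in controls and 8.60 in *Arid1a cKO*, *Prox1* with 9.26 and 8.71, *Hey2* with 8.81 and 8.05, *Meis1* with 8.59 and 7.65, and *Irx3* with 8.41 and 7.81. The peak named for *Irx3* was 241 kb from its start, within an intron of *Fto*. Of the genes of fatty acid oxidation and energy metabolism, 4 of 42 were partial losses, a share of 9.52%, with a median of -0.20 over the 42. They were at the creatine kinase genes *Ckmt2* (9.43 and 8.74) and *Ckm* (9.55 and 8.98), at *Lpl*, lipoprotein lipase (8.19 and 7.40), and at *Ppargc1a*, a coactivator of mitochondrial genes (8.53 and 8.01).

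No interval was taken for the share of any list, here or above, so no single list was told apart from the 9.03% of all strong peaks. None of the 8 strong peaks of cell cycle genes and none of the 29 of YAP and TEAD targets and partners was a partial loss, and their medians were 0.18 and 0.05. In the BAF complex, 2 of 15 (13.3%) were partial losses, both at *Dpf3*, a muscle subunit, with 8.58 and 7.64, and 8.03 and 7.5. Of 20 strong peaks at ribosomal protein genes, the only one (5%) was at *Rpl3l*, the paralog of *Rpl3* used in striated muscle, with 8.43 and 7.68. The 14 strong peaks of cardiomyocyte markers all differed by less than 0.5, with 13 of them lower and a median of -0.19. Those of the fibroblast markers, 8 in all, had a median of 0.37.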

How the data were processed

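H3K27Ac ChIP-Seq was compared between 2 *Arid1a f/f* control and 2 *Arid1a cKO* ventricles at P7, grouped by the labels. Alignment by the authors was to mm10 with BWA (0.7.17-r1188). Peaks came from HOMER, with the inputs merged, and the authors used DESeq2 (1.24.0) through DiffBind (2.12.0) for the comparison. The deposited table gives log2 values per peak, the concentrations of DiffBind, as a mean over all samples and per group. Its columns of fold changes, p-values and FDR were not used. The number of columns for single samples is 0. Library depth is thus unknown, and neither a count model nor a comparison of replicates was possible. The scaling of the libraries and the treatment of input are not given in the sources used here.

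Differences are the *Arid1a cKO* minus the control concentration, and reads are 2 to the power of the concentration. All 532 partial losses were analysed, with no filter. Peaks were joined to the GRCm38.p6 reference, the assembly of mm10, and 45756 curated RefSeq transcripts. The 7 peaks on unplaced sequences, 2 of them strong, were left out of place and motif steps. Transcript ends reached from 100 bp before to 1000 bp after the end. Cores were searched on both strands of the whole peak. Shares carry 95% Wilson intervals and medians 95% order-statistic intervals. The steps were tested on simulated data. Peaks were named for the highest control levels, the largest losses, the genes with most partial losses, the limits, the lists and the promoters. The members and lists were chosen with earlier results of these data known. Alternatives covered the level, the window, centring, sex chromosomes, promoters, transcripts, motif window and gene assignment. The scripts ran in Python 3.11.15 (pandas 2.3.3, numpy 2.4.6, matplotlib 3.10.9 and scipy 1.17.1). A few peaks are not reported here.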

Additional observations from a re-analysis of the deposited data

How the results depend on the processing

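No paired analysis was possible because the table holds a mean per group and no column per sample, and leaving out a heart was not possible either. Of 116 alternative values, 74 stayed within the interval of the reported value or, for a count or a share of reads, within 1.5 times of it. The median difference is below 0 under every alternative because the window is. The others follow from other sets of peaks or other definitions.

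With a control level of at least 9, there were 175 partial losses with a median difference of -0.64, a width of 8156 bp, a distance of 7.98 kb, 8.57% at promoters, a MEF2 core in 32.0% and an ESRR core in 84.0%, of which 25 were nearest to genes of the 7 heart lists, and they held 8.42% of the reads lost. With at least 7, there were 1230, with -0.78, 4139 bp, 19.97 kb, 25.9% between genes, MEF2 in 21.6%, ESRR in 66.9%, 99 in the lists and 24.4% of the reads. With the *Arid1a cKO* level at 8 or more, there were 253, with -0.63, 7239 bp, 8.92 kb, MEF2 in 34.0%, ESRR in 81.8%, 31 in the lists and 10.01% of the reads. With the level over all samples, the width was 6488 bp. The stricter window of the difference kept 186, with a median of -0.92, 3.76% at promoters, MEF2 in 22.6%, 18 in the lists and 5.90% of the reads.

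Promoters of 1000 bp on each side held 14.1% of partial losses and left 59.0% in introns, and promoters touched by any base held 33.3% and left 43.8%. In the central 500 bp, MEF2 was in 2.63% and ESRR in 11.5%. Named by gene span or by protein-coding starts, the metabolism list held 7 partial losses in place of 4, and by span the YAP and TEAD list held 1. The spread between hearts was not measured.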
